A study of Mus musculus with 33 samples.

Results

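The small heat shock protein genes Hspb1, Hspb2, Hspb6, Hspb8 and Cryab were followed through 15 ChIP-seq peak lists of mouse embryonic fibroblasts (MEFs), connective tissue cells cultured from embryos. A peak is a stretch of the genome where a library held more sequenced tags than its background, and its summit is the position where the tags were densest. Every peak whose summit lay within 1 of these 5 genes, or within 10 kb of either end, was taken. This gave 20 of the 45686 peaks, of which 4 came from HSF1 knockout cells, 16 from wild type cells with the antibodies CS and MM, and 0 from wild type cells with an antibody against SRF.

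The groups were HSF1-/- MEFs that were not heated or were heat shocked for 12 or 60 min, and wild type MEFs at the same times, all on the 129Sv.BALB/c background. Chromatin of both genotypes was precipitated with an antibody from Cell Signaling (CS) and with one given by the Morimoto lab (MM), and wild type chromatin also with the SRF antibody. What CS and MM recognise is not in the labels, but the file headers name an Hsf1 ChIP-seq. There was 1 list for each combination, so no replicate error was available, no test was run, and the comparisons below describe these lists. Peak lists hold no expression values, so the loss of Hsf1 and the identity of the cells could not be checked in them.

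The wild type CS and MM lists were called by the authors against an IgG library of the same time and name 2 merged replicates. The knockout lists were called with no control library and name no merge, so peak numbers of the genotypes cannot be set on a common scale. The knockout libraries kept 5.18 to 15.6 M tags and the lists held 3170 to 7813 peaks, against 14.0 to 26.3 M tags and 180 to 4773 peaks for wild type CS and MM. The SRF libraries were far shallower, with 0.751 to 1.55 M tags and 18 to 68 peaks.

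Small heat shock proteins are chaperones that hold unfolding proteins in a soluble state without using ATP, and they share the alpha-crystallin domain. Hspb1 (Hsp25 in the mouse) and Cryab (alpha B-crystallin) form large oligomers and bind actin or intermediate filaments, Hspb8 works with the co-chaperone Bag3 in removing damaged proteins, and Hspb2 and Hspb6 (Hsp20) are best known from muscle. HSF1, a transcription factor that forms trimers on heat shock, binds the heat shock element, a row of inverted GAA units. Hspb2 and Cryab are neighbours that are transcribed away from each other from a short stretch of DNA between them.

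Sequence was available for the promoters of 3 of the 5 members (Hspb1, Hspb8 and Hspb6) as windows of 300 bases in RefSeq's GRCm38.p6 annotation, the same primary assembly as mm10. Positions are counted from the annotated start, which is 0, with minus signs before it. Inverted pairs of GAA units were searched on both strands as GAANNTTC and as TTCNNGAA. The Hspb1 promoter is shown because a peak summit fell on it in every wild type heat shock list. It lies at chr5:135887669-135887918 on the plus strand, and the capitals mark its matches to GAANNTTC.
Hspb1: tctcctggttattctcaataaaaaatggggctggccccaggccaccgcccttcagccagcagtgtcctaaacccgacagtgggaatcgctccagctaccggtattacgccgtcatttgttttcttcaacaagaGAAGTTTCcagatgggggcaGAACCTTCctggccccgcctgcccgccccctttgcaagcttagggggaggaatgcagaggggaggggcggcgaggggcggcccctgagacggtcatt

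The matches in the 3 members are set out below as 30 bases each, read in the direction of the gene, with the 8 matching letters in capitals. They allow the Hspb1 and Hspb8 matches, which lay near summits, to be read beside the Hspb6 match, which did not. The Hspb1 stretches lie at chr5:135887791-135887820 and chr5:135887811-135887840 (plus strand), the Hspb8 stretch at chr5:116422844-116422873 (minus strand) and the Hspb6 stretch at chr7:30553170-30553199 (plus strand).
Hspb1 first match: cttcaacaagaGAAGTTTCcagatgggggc
Hspb1 second match: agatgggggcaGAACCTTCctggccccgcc
Hspb8 match: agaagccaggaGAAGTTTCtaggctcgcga
Hspb6 match: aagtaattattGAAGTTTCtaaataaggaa

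The first comparison was how many of the 5 genes had a peak in each list. In knockout cells before heat shock, 1 gene (Hspb8) had a CS peak and 3 genes (Hspb8, Hspb2 and Cryab) had an MM peak. The number of MM peaks was 2, since 1 of them was counted for both Hspb2 and Cryab. In the same lists 21.6% and 9.92% of all 21631 protein-coding genes had a peak within 10 kb. At 12 min 1 gene (Hspb1) had a CS peak in knockout cells and 0 had an MM peak, with 15.9% and 16.8% of all genes. At 60 min 0 genes had a CS or MM peak in knockout cells, with 18.1% and 11.4% of all genes. The knockout counts of 0 to 3 of 5 genes thus stood in lists that had a peak near 9.92% to 21.6% of genes.

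In wild type cells before heat shock 0 of the 5 genes had a peak, in lists that reached 0.712% (CS) and 2.03% (MM) of all genes. At 12 min 4 of the 5 (Hspb1, Hspb8, Hspb2 and Cryab) had a peak with each antibody, against 6.41% of all genes with CS and 7.23% with MM. At 60 min the same 4 genes had a peak with each antibody, against 13.9% with CS and 15.4% with MM. Hspb6 was the member without a peak in any list. With the SRF antibody 0 of the 5 genes had a peak before, at 12 or at 60 min, where 0.194%, 0.254% and 0.0878% of all genes had one. The SRF peak nearest to any member lay 1210 kb from Hspb1, in the list made without heat shock.

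Peaks of CS and MM from the same genotype and time were joined into a shared region where they overlapped by at least 1 bp. In knockout cells 0 of the 5 genes had a shared region at any of the 3 times, with 2.37%, 2.01% and 2.55% of all protein-coding genes before, at 12 and at 60 min. In wild type cells the counts were 0, 4 and 4 genes at these times, with 0.532%, 5.33% and 11.2% of all genes. Both wild type lists of a time were called against 1 IgG library, and their overlap does not stand free of that control. Every one of the 16 wild type peaks at these genes had its partner in the list of the other antibody.

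**Figure D1:**
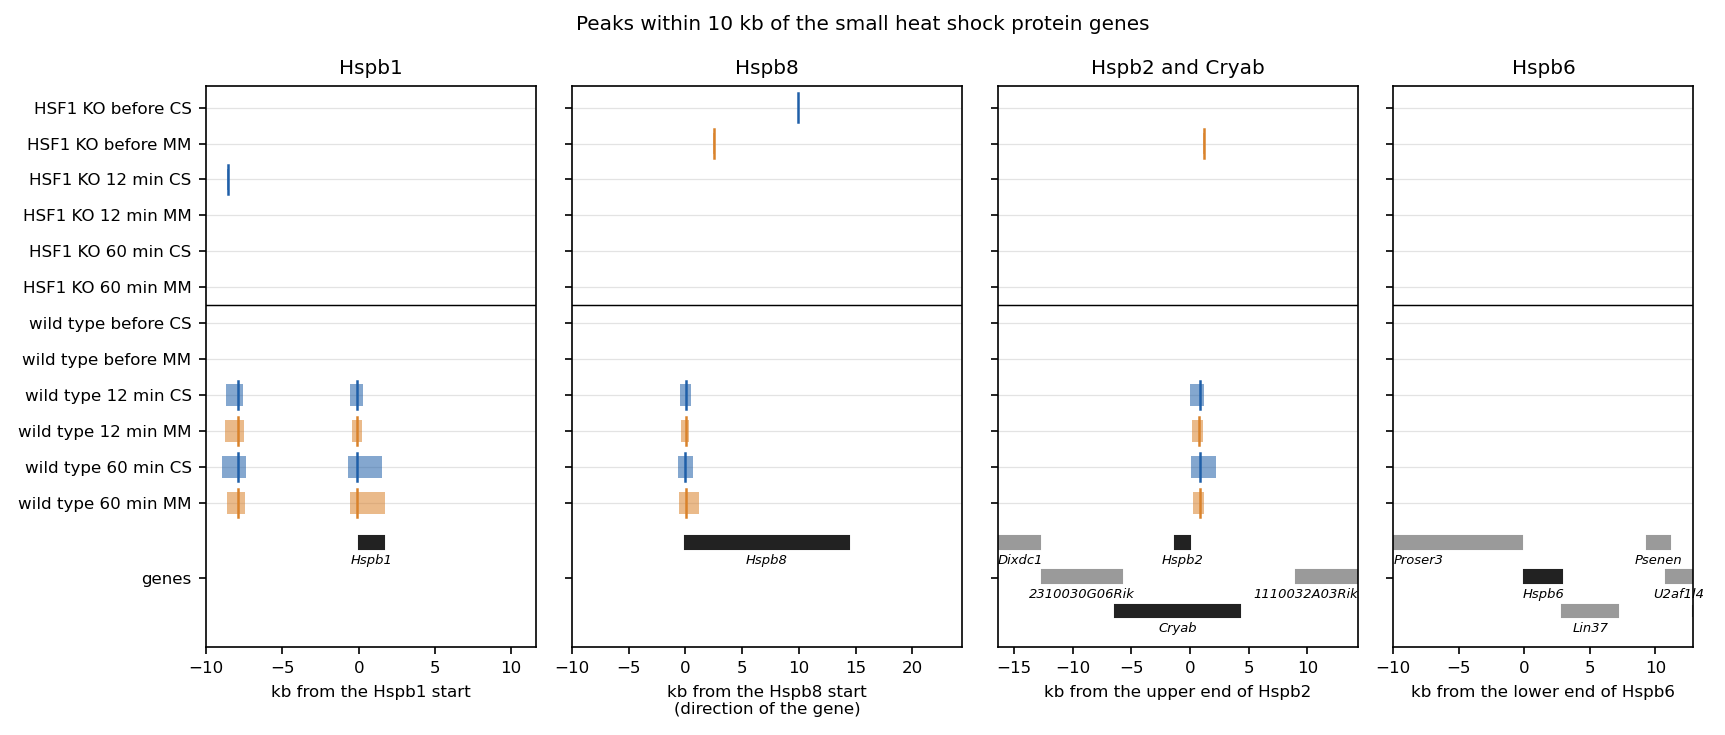
Maps of the peaks at the 5 genes in the 12 CS and MM lists, HSF1 knockout above wild type, with position in kb from a gene end on the horizontal axis. Shaded boxes span each peak, ticks mark its summit and bars at the bottom are protein-coding genes. The wild type heat shock lists hold 2 sites at Hspb1 and 1 each at Hspb8 and at Hspb2 and Cryab, and no list holds a peak at Hspb6.

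Hspb1 (chr5:135887919-135889563, plus strand), which encodes Hsp25, had 2 separate peaks in each wild type heat shock list. The peak at its start held 159 tags with CS and 88 with MM at 12 min, and 533 with CS and 403 with MM at 60 min. Its summit lay 106, 102, 106 and 96 bp before the annotated start in those lists. The summits of the 4 lists thus fell within 10 bp of each other. Tags are not scaled for depth, which was 26.3 and 17.7 M at 12 min and 19.6 and 14.0 M at 60 min for CS and MM. Both 60 min peaks held more tags than both 12 min peaks although the 60 min libraries kept fewer tags with each antibody. The 60 min peaks were also wider, and per kb of peak the difference was smaller. The start peak held 188 (CS) and 130 (MM) tags per kb at 12 min and 235 and 176 at 60 min.

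The start peak of Hspb1 ranked 265 of 1781 by tags with CS and 284 of 1927 with MM at 12 min. At 60 min it ranked 55 of 4773 with CS and 44 of 4614 with MM. Ranks in lists of different length show no change by themselves. The peak spanned 845 bp (CS) and 678 bp (MM) at 12 min and 2264 and 2295 bp at 60 min. It covered 294 and 247 of the 1645 bp of the gene at 12 min, and 1545 and 1645 bp at 60 min, so that the 60 min peaks ran across almost the whole gene.

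The stronger Hspb1 peak by tags lay upstream, with its summit 7920 and 7917 bp before the start at 12 min and 7930 and 7937 bp at 60 min (CS and MM). It held 392 tags with CS and 267 with MM at 12 min, and 861 and 598 at 60 min. These values placed it at rank 40 of 1781, 35 of 1927, 13 of 4773 and 14 of 4614. The upstream peak held more tags than the start peak in 4 of the 4 lists. Its FDR was 6.67% in the 12 min CS list, against 3.73% for the start peak, so a limit of 5% removes the upstream peak from that list and leaves the start peak. Its summits in the 4 lists lay within 20 bp of each other, and the distance between upstream and start summits was 7814 to 7841 bp.

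Within each list, where the libraries cannot differ in depth, the upstream peak held 2.47 times (CS) and 3.03 times (MM) the tags of the start peak at 12 min, and 1.62 and 1.48 times at 60 min. The upstream share of the tags in both peaks was 71.1% with CS (95% exact binomial interval 67.2 to 74.9) and 75.2% with MM (70.4 to 79.6) at 12 min. At 60 min it was 61.8% with CS (59.2 to 64.3) and 59.7% with MM (56.6 to 62.8). The intervals of 12 and 60 min do not overlap with either antibody, but they cover counting error alone. With 1 list per time a difference between the times was not tested, and peak width enters this share. Per kb of peak the order of the times was the other way round, with 1.85 and 1.68 times the tags per kb in the upstream peak at 12 min and 2.35 and 2.89 times at 60 min. The excess of the upstream peak was therefore lower at 60 min in tags and higher in tags per kb, beside a start peak that was wider at 60 min.

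By the authors' fold enrichment over background the Hspb1 peaks were closer to each other than by tags in each list, and furthest apart with MM at 12 min. The upstream peak had 71.97-fold and the start peak 72.37-fold enrichment with CS at 12 min, and 63.18 and 44.27-fold with MM. At 60 min the values were 114.91 and 127.85-fold with CS and 129.7 and 116.48-fold with MM. The start peak was thus the higher of the pair by fold with CS at both times, and the upstream peak with MM, although the CS values at 12 min were almost equal.

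**Figure D2:**
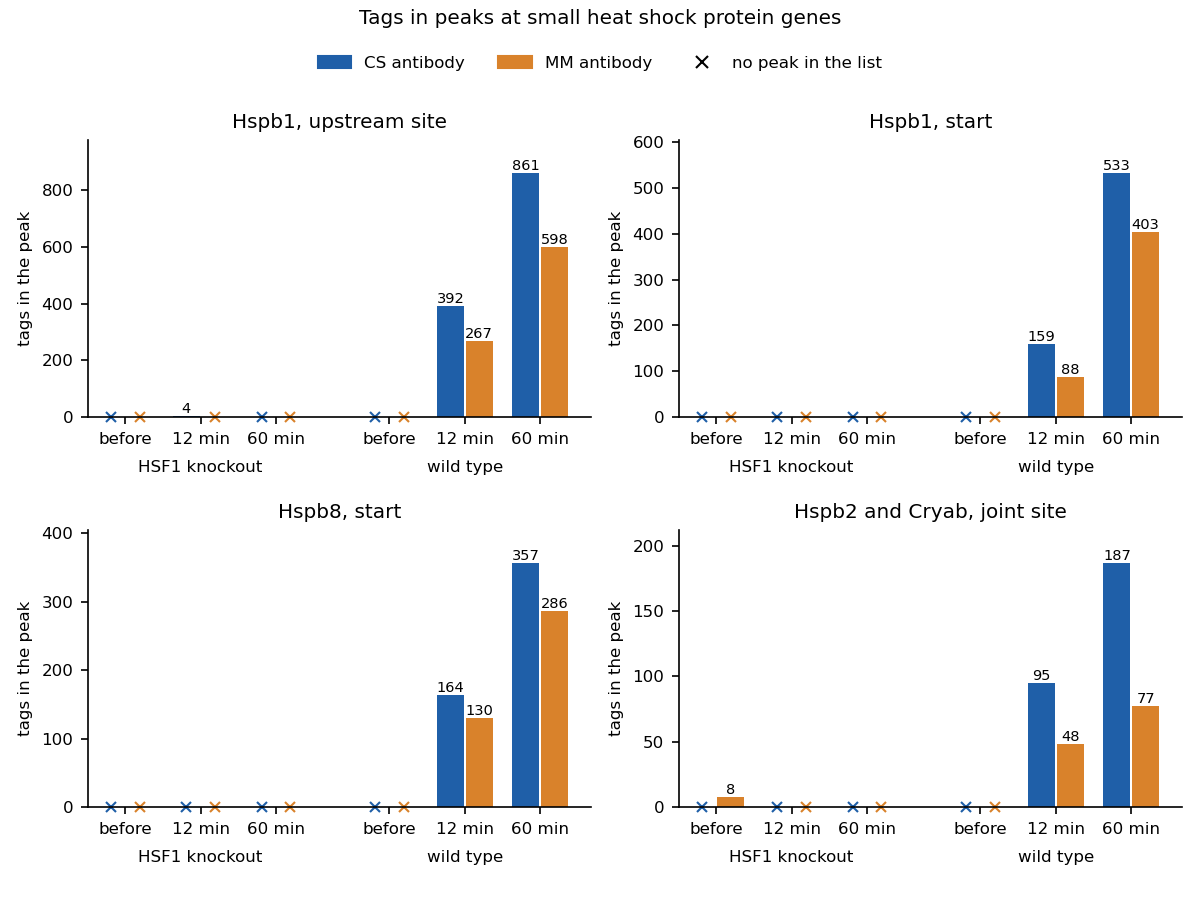
Tags in the peak at each of 4 sites in the HSF1 knockout lists (left of each panel) and the wild type lists (right), before heat shock and after 12 and 60 min, with bars for CS and MM and a cross where the list has no peak. Tags are as deposited and not scaled for depth. Wild type bars stand at 12 and 60 min in all 4 panels, and the knockout bars hold 4 and 8 tags.

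The upstream Hspb1 site was assigned to Hspb1 by distance alone. Its summit was 5209 to 5229 bp from the nearer end of Srrm3, a gene of a splicing-related protein known mainly from neurons. The site was thus closer to that end than to Hspb1. Srrm3 lies on the plus strand (chr5:135806860-135874773), so this is the end opposite its start, whereas the site lies before the start of Hspb1. The small nuclear RNA gene Gm22450 lay nearer still, 4219 to 4239 bp away. Most wild type heat shock peaks (78.0% to 87.7% of a list) had their summit over 1 kb from any end of a protein-coding gene. Among those, the upstream Hspb1 peak ranked 12 of 1445 and 9 of 1503 by tags at 12 min, and 3 of 4186 and 3 of 3728 at 60 min (CS and MM). The sequence at its summit was not analysed here.

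Hspb8 (chr5:116408491-116422864, minus strand), the partner of Bag3 in chaperone-assisted autophagy, had a single wild type site at its start. The peak held 164 tags with CS and 130 with MM at 12 min, and 357 and 286 at 60 min. Its summit lay 35, 9, 3 and 23 bp inside the gene in those lists. The 4 summits fell within 32 bp, and none lay before the start, in contrast to Hspb1. By tags the peak ranked 250 of 1781 and 146 of 1927 at 12 min, and 176 of 4773 and 93 of 4614 at 60 min, with 43.2 and 34.94-fold enrichment at 12 min and 88.2 and 80.7-fold at 60 min.

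The Hspb8 peak spanned 1020 bp (CS) and 675 bp (MM) at 12 min and 1314 and 1702 bp at 60 min. It also covered the start of Gm42009, a long noncoding RNA gene on the plus strand whose annotated end lay 132 to 164 bp from the summits. From position alone the peak cannot be given to Hspb8 rather than to Gm42009.

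Hspb2 (chr9:50751072-50752354) and Cryab (chr9:50745951-50756636) shared 1 peak in each wild type heat shock list. In the annotation used here the span of Hspb2 lies wholly inside that of Cryab, with 5121 bp of Cryab below it and 4282 bp above it. The summit lay above the upper end of Hspb2, by 821 and 792 bp at 12 min and by 863 and 876 bp at 60 min (CS and MM). For Cryab the same summit was inside the annotated span, 3461 and 3490 bp from its upper end at 12 min and 3419 and 3406 bp at 60 min. The 4 summits fell within 84 bp, the widest spread of the 4 sites.

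The distances put the joint summit nearer to an end of Hspb2 than to an end of Cryab in 4 of 4 lists. An annotated span covers all transcripts of a gene, however, and the table used here gives no strand or transcript starts for this pair, so the peak was counted for both genes and could not be divided between them. Of the 4 members called with a peak in the wild type, Hspb2 and Cryab therefore rest on the same tags.

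The joint peak held 95 tags with CS and 48 with MM at 12 min, and 187 and 77 at 60 min. These were the lowest tags of the member sites in each list. By tags it ranked 567 of 1781, 681 of 1927, 639 of 4773 and 902 of 4614, the upper 13.4% to 35.3% of a list. By fold enrichment it stood in the lower part of each list, with 12.28-fold (CS) and 7.19-fold (MM) at 12 min against list medians of 23.8 and 14.9, and 15.69 and 13.39-fold at 60 min against medians of 29.3 and 19.5. Its fold rank was 1657 of 1781 and 1869 of 1927 at 12 min and 4348 of 4773 and 3511 of 4614 at 60 min. The sites of Hspb1 and Hspb8 lay within the upper 21.6% of each list by fold, whereas the joint peak moved from the upper to the lower part of each list between the measures. The ranks of the other sites moved as well, that of the upstream Hspb1 peak in the 60 min CS list being 13 by tags and 230 by fold.

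**Figure D3:**
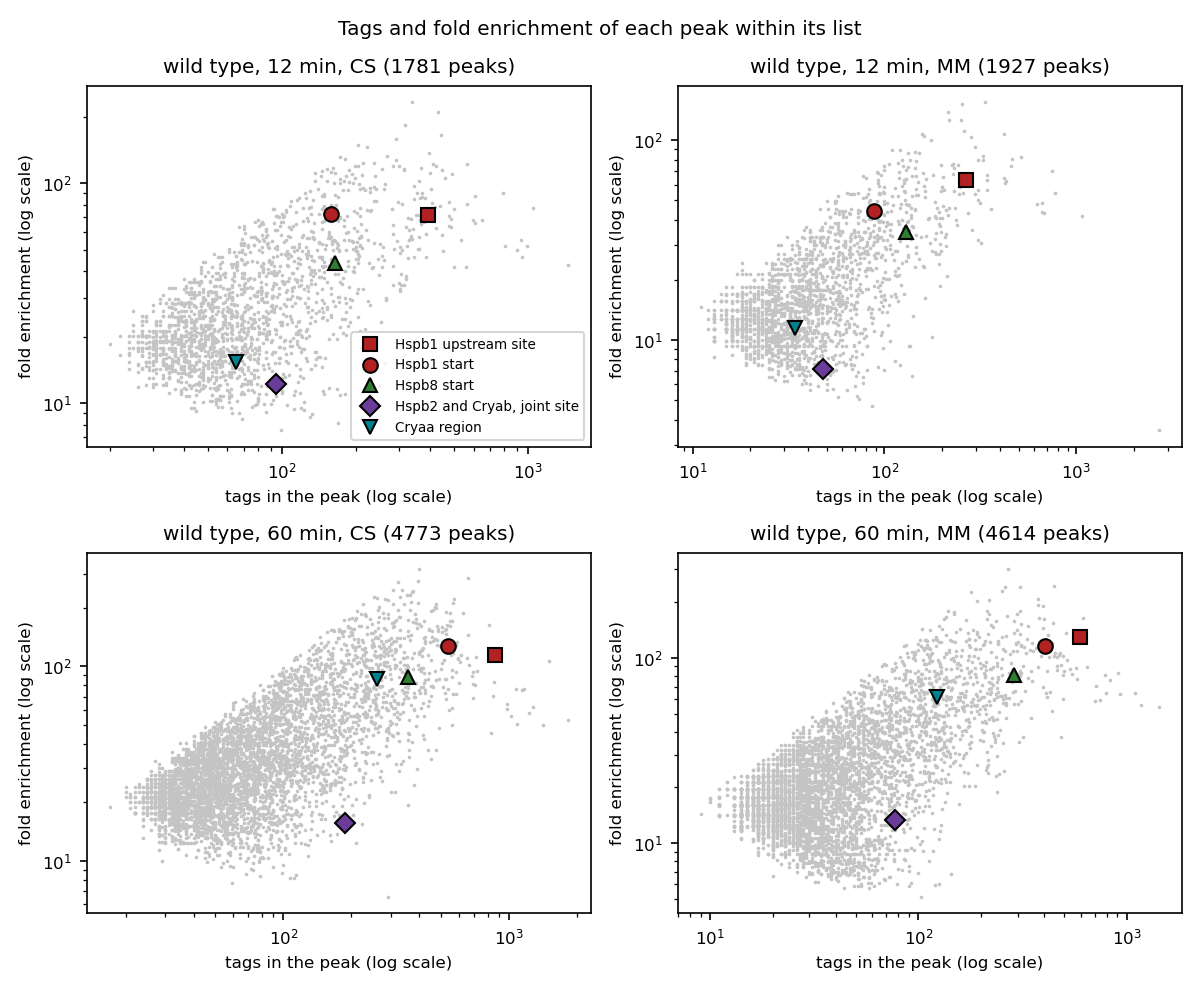
Tags (horizontal, log scale) and fold enrichment (vertical, log scale) of every peak in the 4 wild type heat shock lists, as deposited by the authors, in grey, with the member sites and the Cryaa region marked. The Hspb1 and Hspb8 sites lie in the upper right of each panel, while the joint Hspb2 and Cryab site lies at the lower edge for its tags, with 7.19 to 15.69-fold enrichment.

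A stricter cutoff was also applied. With peaks of p of 1e-10 or less alone, 0 member peaks were left in the knockout lists, against 4 with all peaks. The cutoff kept 8.54% to 24.4% of all peaks of a knockout list, so that most peaks there were lost with those of the members. Of all protein-coding genes, 1.48% (CS) and 1.83% (MM) kept a knockout peak before heat shock, 1.53% and 1.39% at 12 min and 2.26% and 1.63% at 60 min. In the wild type heat shock lists it kept 39.3% to 49.9% of peaks. There 2.98% (CS) and 3% (MM) of genes kept a peak at 12 min, and 8% and 7.19% at 60 min. At the same cutoff Hspb1 and Hspb8 kept a peak in 4 of the 4 wild type heat shock lists. Hspb2 and Cryab kept theirs in 1 of the 4, the CS list at 60 min. That call was close, since the joint peak had a p score of 106.14 in this list and 99.83 in the 60 min MM list, on either side of the cutoff of 100.

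Hspb6 (chr7:30552535-30555443, plus strand), which encodes Hsp20, had no summit within 10 kb in any of the 15 lists. In knockout cells the nearest summit lay 47.0 to 727 kb away. In wild type cells it lay 1680 kb (CS) and 455 kb (MM) away before heat shock, 129 and 94.9 kb at 12 min, and 94994 and 94980 bp at 60 min. The absence is of a called peak at the depth of these libraries. The fewest tags of any called peak were 20 and 11 in the 12 min CS and MM lists and 17 and 9 in the 60 min lists.

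The 4 knockout peaks at the members were small. Each held 4 to 8 tags and spanned 87 to 123 bp, with a p score (minus 10 times log10 of p) of 41.3 to 58.3. The fewest tags of any peak were 5 in the CS and 6 in the MM knockout list before heat shock and 4 in the CS knockout list at 12 min. The peaks in Hspb8, with 5 tags (CS) and 6 tags (MM) before heat shock, and the one upstream of Hspb1, with 4 tags (CS) at 12 min, thus stood at the minimum of their lists. The 8 tags of the MM peak at Hspb2 and Cryab before heat shock exceeded it by 2.

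Position set the knockout peaks apart from each other. Both peaks in Hspb8 lay well inside the gene, 9938 bp (CS) and 2518 bp (MM) from the start, and overlapped 0 of the 4 wild type peaks there. The peak upstream of Hspb1 overlapped all 4 wild type upstream peaks, with its summit 629 to 649 bp from theirs. The MM peak at Hspb2 and Cryab overlapped 3 of the 4 wild type peaks of the joint site, with summits 267 to 351 bp apart over all 4. None of the 4 knockout peaks was matched by the other antibody.

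Just outside the 10 kb limit stood 1 knockout peak of 4 tags, 12787 bp from Hspb1 in the 12 min CS list, and 1 wild type peak of 19 tags, 10447 bp from Hspb8 in the 60 min MM list. The outermost peaks inside it were the knockout peak at 8566 bp and the wild type peaks at 7917 to 7937 bp, all upstream of Hspb1.

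Before heat shock, the wild type peaks nearest to the members were distant. They lay 68.1 kb from Hspb1 with either antibody, 1110 kb (CS) and 777 kb (MM) from Hspb8, and 6810 and 775 kb from Hspb2. These lists were short, with 180 and 449 peaks. The heat shock protein genes Hspa8, a constitutive Hsp70, and Hsp90ab1, a cytosolic Hsp90, had peaks in both. The strongest held 338 (CS) and 255 (MM) tags at Hspa8 and 194 and 140 tags at Hsp90ab1. Their FDR was 100% (CS) and 50% (MM) at Hspa8 and 100% and 42.86% at Hsp90ab1. Dnajb1 (an Hsp40 co-chaperone) had peaks with MM alone, of 42 and 37 tags, with an FDR of 100% and 91.84%. None of these peaks would pass an FDR limit of 5%, and the lowest FDR in the whole CS list was 39.47%. Hspa1b (an inducible Hsp70) had no peak in either list, as was the case for the members.

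Set against genes of the larger chaperones after heat shock, the members ranked lower by tags. In the 60 min CS list Hspb1 ranked 13, Hspb8 176 and the joint Hspb2 and Cryab peak 639 of 4773 by tags. In the same list Hsp90ab1 ranked 1, Hspa1b 3, Hspa8 6 and Dnajb1 10. At 12 min with CS Hspb1 ranked 40, Hspb8 250 and the joint peak 567 of 1781, against 1 to 9 for these larger chaperones. By tags the order Hspb1 (by its upstream peak), Hspb8, then the joint peak held in all 4 wild type heat shock lists. By fold the placing differed at 60 min. In the 60 min CS list Hspb1 ranked 230 and Hspb8 427 by fold, ahead of Hspa8 at 570 and Dnajb1 at 980. Hsp90ab1 ranked 1055, Hspa1b 1145 and the joint peak 4348 there. At 12 min Hspa8 stood ahead of both members by fold. With CS the 12 min fold ranks were Hspa8 103, Hspb1 125, Dnajb1 148, Hspa1b 275, Hspb8 385 and Hsp90ab1 396. With MM they were Hspa8 40, Hspb1 62, Dnajb1 69, Hspa1b 127, Hsp90ab1 178 and Hspb8 246. All Hspb1 ranks in this comparison are those of its upstream peak. By fold its start peak ranked 170 in the 60 min CS list, and 124 (CS) and 152 (MM) at 12 min.

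The matches to GAANNTTC in the Hspb1 promoter lay at -117 to -110 and at -97 to -90. The start summits, at -106 to -96, fell between or on these matches. From the centre of the first match they lay 7.5 to 17.5 bp away, and from the centre of the second 2.5 to 12.5 bp. In Hspb8 the match lay at 2 to 9, just inside the gene, and its centre was 2.5 to 29.5 bp from the summits. Both genes thus had a match within 30 bp of every summit, on opposite sides of the start.

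The first Hspb1 match, the Hspb8 match and the Hspb6 match had the same 8 letters, GAAGTTTC, which 1.12% of the 21045 promoter windows of protein-coding genes held on either strand. The Hspb6 match lay at -120 to -113 of the second of its 2 annotated starts, a distance close to that of the first Hspb1 match, and had no peak. No match to TTCNNGAA, nor to 3 alternating units in a row with the same spacing, was in the windows of these 3 genes. A match describes letters and does not show binding.

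Of the promoter windows that held a wild type CS summit, 46.2% at 12 min (119 windows) and 41.2% at 60 min (165 windows) had GAANNTTC. With MM the shares were 35.3% of 153 windows and 25.9% of 336 windows. Hspb1 and Hspb8 were among these windows in each list. Over all windows of 300 bases, 7.27% held GAANNTTC, 7.69% held TTCNNGAA and 0.523% held 3 units in a row, in which GAANNTTC and TTCNNGAA overlap.

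**Figure D4:**
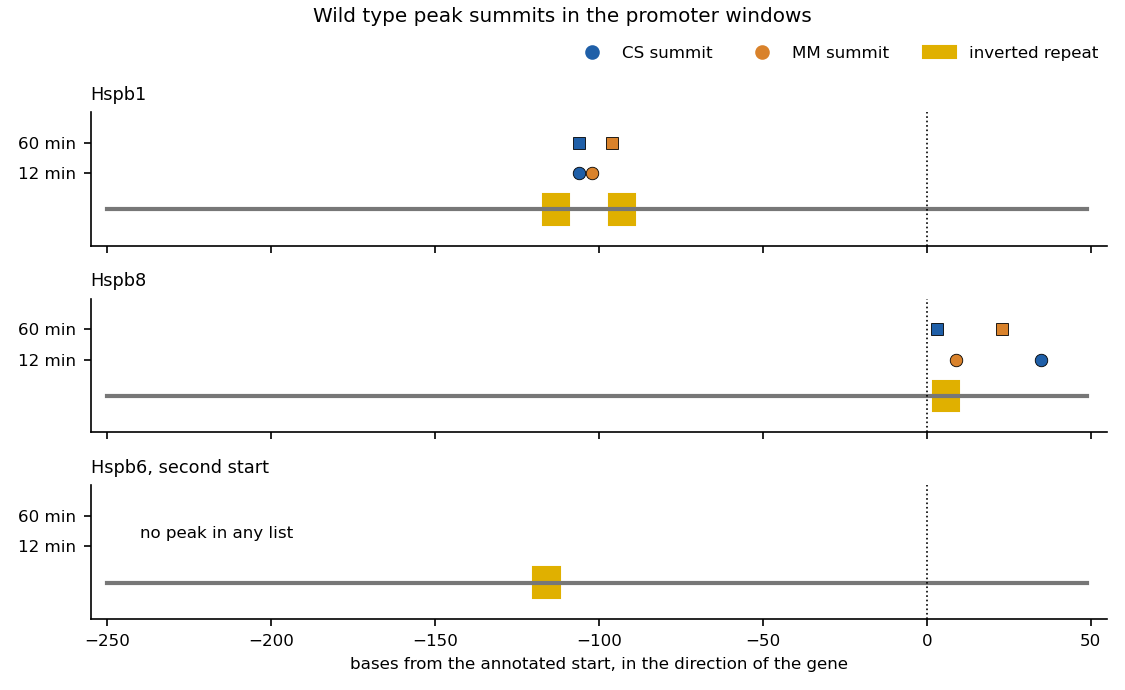
Summits of wild type CS and MM peaks at 12 and 60 min (points) and matches to the inverted repeat (boxes) in the promoter windows of Hspb1, Hspb8 and the second start of Hspb6, with bases from the annotated start on the horizontal axis. The Hspb1 summits stand at -106 to -96 between or on 2 matches, the Hspb8 summits at 3 to 35 around 1 match, and Hspb6 has a match and no peak.

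The family holds 5 more genes in the list used here, Hspb3, Hspb7, Hspb9, Odf1 (a protein of the sperm tail) and Cryaa (alpha A-crystallin of the eye lens). Cryaa was the single one of them with a wild type peak within 10 kb, 6518 to 6571 bp past the gene. Its 4 peaks held 65 (CS) and 34 (MM) tags at 12 min, ranks 912 of 1781 and 1074 of 1927, and 259 and 123 tags at 60 min, ranks 371 of 4773 and 471 of 4614. At 60 min this region thus held more tags than the joint Hspb2 and Cryab peak with each antibody, while at 12 min it held fewer. Hspb7 (6 tags), Odf1 (5 and 6 tags) and Cryaa (5 tags) also had knockout peaks with no partner of the other antibody, and Hspb3 and Hspb9 had none in any list.

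The genes most like each member were found by the sum of absolute differences in percentile rank by tags over the 6 wild type CS and MM lists, with a gene without a peak at 0. For Hspb1 they were Swt1 and Trmt1l (1.16 each), which stand side by side and share peaks, and Hspa1l (1.45), a testis Hsp70 on chromosome 17, as Hspa1b is. For Hspb8 they were Csk (3.54), a kinase that holds Src kinases inactive, Mansc1 (5.15) and Nfam1 (6.09). For Hspb2 and Cryab they were Auh (11.7), Plcxd2 (12.2) and 2700049A03Rik (12.4). The sums were smallest for Hspb1 and largest for the joint site. In the heat shock lists the percentiles were 97.8 to 99.7 for Hspb1 and 64.7 to 86.6 for the joint site. Near the top of the scale high-ranked genes can differ little, so the sums do not compare closeness between members.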

How the data were processed

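Peak lists of 15 ChIP-seq samples were used, and the other 18 of the 33 samples (PRO-seq, IgG and input) were not analysed here. The authors called CS and MM peaks with MACS 1.4.2 and SRF peaks with MACS2 2.0.9 at a p cutoff of 0.0001 on mm10, keeping 1 tag per position, per the file headers and the labels. No aligner is named in the sources used here. Each CS or MM peak carries, per the file headers, a deposited tag count, a p score (minus 10 times log10 of p) and a fold enrichment (a ratio). Wild type CS and MM peaks also carry a deposited FDR in percent. Each SRF peak carries a deposited pileup (a signal) and -log10 values of the p-value and the q-value. These are the authors' own values, used here to describe, rank and filter peaks within a list. The start, end and summit positions are as deposited by the authors.

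Tags kept (M, mega), read from the file headers, were 5.18 to 15.6 M in knockout and 14.0 to 26.3 M in wild type CS and MM lists. Gene ends came from the RefSeq gene table of GRCm38.p6, and its 21631 protein-coding genes of the autosomes and X were the background. Ranks give tied peaks the best place. Intervals are exact (Clopper-Pearson) and cover counting error only. The members, family list and other chaperone genes were chosen with earlier results of these data known. Genes named outside these were neighbours with an end within 10 kb of a member summit and the 3 genes most alike in rank. Scripts used Python 3.11.15, pandas 2.3.3, numpy 2.4.6 and scipy 1.17.1, and the gene search was tested on simulated peaks.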

Additional observations from a re-analysis of the deposited data

How the results depend on the processing

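No paired analysis was possible because each combination of genotype, time and antibody had 1 list. The number of members with a peak changed by over 1.5 times in 6 lists with p of 1e-10 or less. Of the lists with a member peak, only the wild type CS list at 60 min kept its number at this cutoff. The number fell to 0 in the knockout CS and MM lists before heat shock and in the knockout CS list at 12 min. It fell to 2 in the wild type lists at 12 min (CS and MM) and 60 min (MM). The same cutoff gave 2 members with a shared region at 12 and at 60 min in wild type cells. An overlap of 50% of both peaks gave 2 at 60 min. A window of 1 or 5 kb gave 0 in the knockout CS list at 12 min, and a window of 50 kb gave 5 in the knockout CS list before heat shock. An FDR of 5% or less, any overlap of the peak with the window, and a -log10 q of 2 or more for SRF changed no count by more, although the FDR limit removed the upstream Hspb1 peak at 12 min with CS. Counts that were already 0 could not fall under a stricter limit. In the wild type CS list before heat shock the lowest FDR was 39.47%, so the limit left no peak there. The rank of each member's strongest peak moved by over 1.5 times under fold enrichment in 16 of 16 cases, and under the p score or tags per bp in 11 each. Midpoints in place of summits moved 4 of 16 distances by over 1.5 times. Among the 9654 genes no longer than Hspb8, a setting chosen after seeing the data, 4.2% and 4.89% had a peak at 12 min and 8.02% and 9.84% at 60 min in wild type cells (CS and MM). Depth limits what a missing peak shows, most of all for SRF.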
